A study of Mus musculus with 11 samples.

Results

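The comparison described here set RNA of round spermatids from Dnmt3L heterozygous males against that of round spermatids from wild type males, with no probe of the array chosen beforehand. Its members are the spermatid arrays, 3 heterozygous and 3 wild type, which are 6 of the 11 arrays measured; the other 5 hold spermatocytes of both genotypes. The heterozygous males carried 1 intact Dnmt3L allele and 1 allele in which a LacZ reporter with stop codons had been placed in the exon for the PHD-like zinc finger. Both groups were on a C57Bl/6 background and 8 to 12 weeks old, and the labels name no treatment. Each array held one preparation, pooled from the testes of 10 mice, so the spread between arrays is that between pools and not between animals. Round spermatids were taken from a dissociated testis by centrifugal elutriation, which sorts cells by size, and a fraction prepared in this way also holds some cells of other kinds. The targeting fragment came from strain 129S6/SvEvTac, and per the study's methods a database search found no single-base differences from C57BL/6J there. Spermatids of a heterozygous male carry either the intact or the disrupted allele yet exchange RNA through cytoplasmic bridges, so each heterozygous pool is a mixture of both.

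DNMT3L resembles the de novo DNA methyltransferases DNMT3A and DNMT3B but has no catalytic activity of its own, and it acts by binding and stimulating them. In the mouse germ line it is known for its work before birth, in prospermatogonia, where methylation is laid down on retrotransposons and paternally imprinted regions. Round spermatids are the haploid cells that follow the meiotic divisions; they are still transcribed, build the acrosome and the flagellum, keep much of the X and Y chromosomes repressed, and later exchange histones for protamines.

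The deposited values are on a log2 scale after variance stabilisation and quantile normalisation, so a difference of 1 is a doubling as the array reads it. The medians of the spermatid arrays were 6.873 to 6.874 and their values ran from 6.4 to 13.99. Over the 27986 probes kept for testing, pairs of heterozygous arrays had correlations of 0.952 to 0.975, and pairs of wild type arrays 0.959 to 0.983. Arrays numbered 2 stood apart in both genotypes: they correlated with the spermatocyte arrays at 0.934 to 0.953 (heterozygous) and 0.923 to 0.945 (wild type), while the other spermatid arrays gave 0.831 to 0.900. Counts are therefore given below with and without that pair where it moves them. The labels give the numbers as names of preparations and state no pairing between the genotypes. Testing rested on 27986 of 46643 probes, those outside the lowest 40% by mean level. The lowest mean kept was 6.802, and the study took probes under such a filter as not expressed. All spermatid arrays lay on one BeadChip, so the genotype comparison does not cross chips.

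The targeted locus was read first. The promoters of Aire and Dnmt3l are printed because the 2 genes are neighbours on opposite strands of chromosome 10 and Aire differed between the genotypes in spermatocytes. They are 300-base windows from 250 bases before to 50 bases after each annotated start, from RefSeq (GRCm38.p6), 5′ to 3′ on the gene's strand, with every CG dinucleotide, the site that DNA methylation acts on, in capitals. The Aire window is chr10:78043561-78043860 on the minus strand, with 16 CG dinucleotides, and 33% of the 32851 promoters in the table hold as many or more. Dnmt3l has 3 listed starts on the plus strand, at chr10:78042037-78042336 (6 CG), chr10:78049592-78049891 (4 CG) and chr10:78055085-78055384 (3 CG). The Aire window thus lies between the first and the second Dnmt3l window, and 94.6% of all promoters in the table hold at least 1 CG on either strand.
Aire: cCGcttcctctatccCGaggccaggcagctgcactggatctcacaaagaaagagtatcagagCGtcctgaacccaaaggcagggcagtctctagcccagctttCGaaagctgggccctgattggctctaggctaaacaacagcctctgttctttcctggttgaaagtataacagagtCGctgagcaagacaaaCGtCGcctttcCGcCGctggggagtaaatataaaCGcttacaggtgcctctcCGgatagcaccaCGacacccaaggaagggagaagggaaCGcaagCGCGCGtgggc
Dnmt3l start 1: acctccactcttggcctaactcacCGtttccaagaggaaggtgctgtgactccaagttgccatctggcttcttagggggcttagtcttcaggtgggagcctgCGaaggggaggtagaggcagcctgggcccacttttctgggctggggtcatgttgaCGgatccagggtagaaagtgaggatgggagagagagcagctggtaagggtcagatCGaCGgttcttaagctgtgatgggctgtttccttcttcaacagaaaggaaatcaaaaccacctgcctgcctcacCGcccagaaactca
Dnmt3l start 2: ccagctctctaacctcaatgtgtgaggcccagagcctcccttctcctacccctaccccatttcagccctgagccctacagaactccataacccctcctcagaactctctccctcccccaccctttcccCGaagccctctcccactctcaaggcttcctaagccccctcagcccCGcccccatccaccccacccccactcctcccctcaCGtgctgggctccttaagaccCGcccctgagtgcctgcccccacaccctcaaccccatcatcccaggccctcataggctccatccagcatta
Dnmt3l start 3: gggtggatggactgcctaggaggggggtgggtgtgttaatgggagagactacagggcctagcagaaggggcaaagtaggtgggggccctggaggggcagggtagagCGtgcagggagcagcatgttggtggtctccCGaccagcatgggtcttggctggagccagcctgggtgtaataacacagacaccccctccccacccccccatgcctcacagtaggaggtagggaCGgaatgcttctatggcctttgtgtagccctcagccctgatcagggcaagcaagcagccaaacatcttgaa

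Aire encodes a transcriptional regulator best known from the thymus, where it lets medullary epithelial cells express genes of other tissues. Its probe 3520685 read 7.10, 8.45 and 7.58 on heterozygous spermatid arrays 1, 2 and 3, against 6.80, 6.73 and 6.89 on wild type arrays 1, 2 and 3. The groups did not overlap, yet the heterozygous arrays spread so widely that the log2 difference of 0.90 ± 0.46 (SE) was not called (adjusted p = 0.316). Differences here are heterozygous minus wild type, the reverse of the sign the study uses. Without both arrays numbered 2 the difference was 0.49. The second Aire probe, 3830739, gave 6.98, 7.18 and 6.95 on heterozygous arrays and 6.88, 6.92 and 6.85 on wild type arrays, a difference of 0.15 ± 0.18 that was not called either. In spermatocytes the first probe read 10.70 and 8.77 on the heterozygous arrays, against 6.75, 6.74 and 6.88 on the wild type arrays, and passed the test there (2.95 ± 0.52, adjusted p = 0.00847). The difference between the cell types, -2.05, had an unadjusted p of 0.0163 and did not pass after adjustment.

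The array's only Dnmt3l probe lies in the last exon, outside the disrupted part, so it cannot check the genotype labels. It read 10.66, 9.78 and 10.96 on heterozygous spermatid arrays, against 10.91, 10.19 and 10.75 on wild type arrays. The groups overlapped, and the log2 difference of -0.15 ± 0.28 was not called (adjusted p = 0.868). The array numbered 2 was the lowest of each genotype. Among 14 neighbouring genes of the locus, 23 probes were kept; none was called, 4 were higher on every heterozygous than on every wild type array (17.4%, where all kept probes gave 6.21%) and 0 lower (3.27% of all), and the median difference of the 23 was -0.01. The 4 were both Aire probes, 1 probe of Icosl (0.06 ± 0.06) and the probe of Rrp1, a ribosomal RNA processing factor (0.33 ± 0.18).

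**Figure D1:**
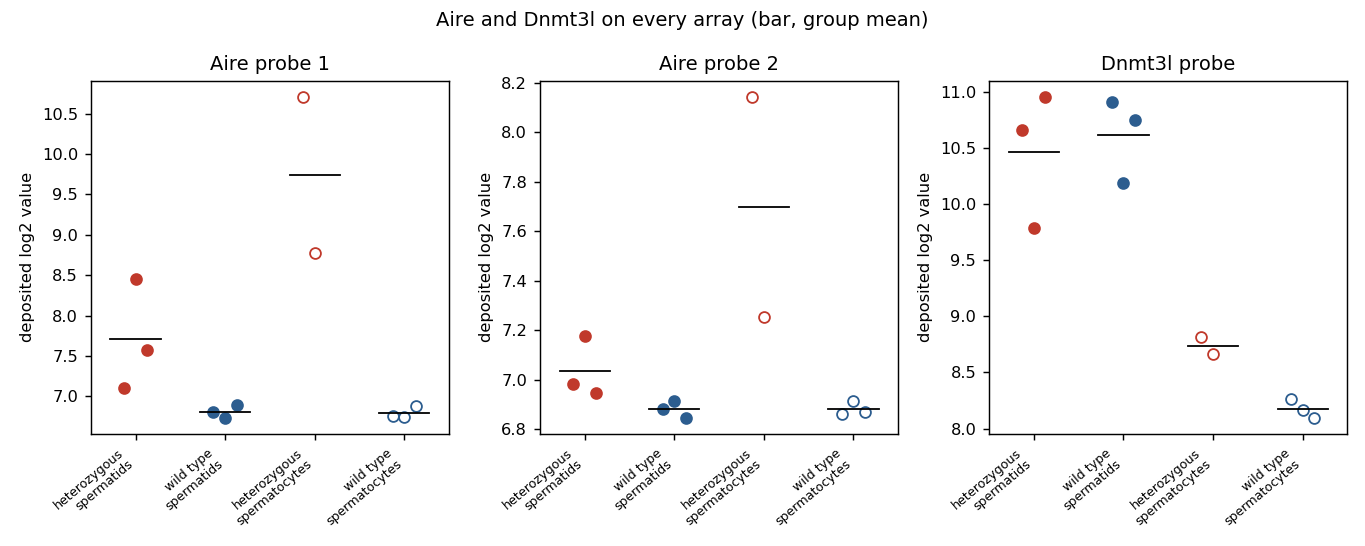
Deposited log2 value (vertical axis, a separate scale in each panel) of both Aire probes and the Dnmt3l probe on each of the 11 arrays, heterozygous in red and wild type in blue, spermatids filled and spermatocytes open, with a bar at the mean of each group. For the first Aire probe the 3 heterozygous spermatid arrays lie between 7.10 and 8.45, above the wild type arrays at 6.73 to 6.89, while Dnmt3l overlaps between the genotypes in spermatids.

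Over all probes the genotype differences were few and small. At an adjusted p under 0.05, taken over 4 contrasts together, 123 of 27986 probes were called (0.44%), 75 with higher values in heterozygous spermatids (0.268%) and 48 with lower values (0.172%). The median log2 difference of the higher probes was 0.41, a fold of 1.33, and that of the lower probes -0.35, a fold of 0.786. The smallest difference called was 0.15 (Grin2d), 23 probes passed 0.5 in either direction, and 1 passed 1. Over all probes the median difference was 0.01. The called probes belong to 89 named genes, 2 of them called by a pair of probes each (Bcl2l1 and Ccng1), and 32 carried no gene symbol. At an unadjusted p under 0.05 there were 1448 probes (5.17%), 825 higher (2.95%) and 623 lower (2.23%). On 1737 probes (6.21%) every heterozygous array was above every wild type array, and on 915 (3.27%) every one was below, and all 123 called probes were among these.

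The calls rest on adjusting the genotype contrast together with those between cell types. The largest unadjusted p among them was 0.00566. Adjusted within this contrast alone, limma called 0 probes (smallest adjusted p = 0.123), and with the spermatid arrays alone in the fit it called 0 as well (0.333). Leaving out single arrays moved the count: 1340 probes without heterozygous array 2, 533 without wild type array 2, 363 without heterozygous array 1, 24 without wild type array 1, and 36 to 62 without any one of the others. Without both arrays numbered 2 there were 1512, 856 higher and 656 lower, among them 99 of the 123. Counts of single fits differed in direction too, with 1059 higher and 281 lower without heterozygous array 2, 152 and 381 without wild type array 2, and 109 and 254 without heterozygous array 1; a trended robust prior gave 26 higher and 103 lower. In every one of the 11 fits that left out 1 array, 11 of the 123 were called: Pigo, Cables2, Ccdc40, Zfp523, Ogfod2, 4933433G15Rik and an unnamed probe among the higher, and Ccnd1, Epb41l4b and a pair of unnamed probes among the lower. For 50 called genes 90 other probes were kept, of which 54 had the direction of the call, 15 of them at an unadjusted p under 0.05, and 0 had the opposite direction at that level. In 21 genes every other probe had the direction of the call and in 17 none did; among these 17 are Cables2, Trmt1, Mcm4, Brd2, Pdgfa, Prkd3, Slc25a10, Ccdc114, Iqca, Dffa, Cul1, Sh2b3, Nans and Tnpo2. The values below are those of the called probe unless another is named. The gene lists below were chosen with earlier results of these data known. Shares of a list set beside those of all probes are therefore descriptions and no test of enrichment.

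The called probes shared a pattern over the arrays. Heterozygous array 3 was the highest of its group for 51 of the 75 higher probes (68%), and wild type array 3 the lowest of its group for 44 (58.7%). Over all kept probes with a positive difference these shares were 48.2% and 48.9%. Wild type array 2 was the highest of its group for 51 of the 75 (68%), against 44.5% of those kept probes. Of the 48 lower probes, wild type array 2 was the lowest of its group for 37 (77.1%). Wild type array 3 was the highest for 31 (64.6%). Those shares were 41.9% and 41.6% over all kept probes with a negative difference. Wild type means of the cell types were compared for the 12 higher and 12 lower genes plotted array by array. All higher ones except Xrn1 (7.91 and 7.96) had a higher mean in spermatocytes than in spermatids, as Ccdc40 did (10.31 and 9.34). All lower ones except Wnk1 (8.79 and 7.61) had a lower mean in spermatocytes, as Iqca did (8.66 and 11.26). The share over all kept probes was not taken. The part of spermatocytes in the called genes was not tested. The higher calls lay mostly among probes of high level: over 5 bins of equal size, from low to high level, they numbered 1, 3, 12, 38 and 21, while the lower calls numbered 3, 12, 14, 12 and 7. By chromosome, 11 calls lay on chromosome 5 (9 higher, 2 lower, 0.803% of its 1370 probes), 10 on chromosome 4 (5 and 5, 0.762% of 1313) and 0 on chromosome 14 (740 probes).

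Since DNA methylation acts on CG dinucleotides, the differences were set against the base composition of the promoters. Epb41l4b and Zfyve9, both lower in heterozygous spermatids, are printed because among the genes that fell and have a promoter in the table they hold the most and the fewest CG dinucleotides: the Epb41l4b window (chr4:57143107-57143406, minus strand) is 85% G or C with 58 CG dinucleotides, a number that 0.11% of promoters in the table reach, and the Zfyve9 window (chr4:108781039-108781338, minus strand) is 39.7% G or C with 4. Build, window and capitals are as above.
Epb41l4b: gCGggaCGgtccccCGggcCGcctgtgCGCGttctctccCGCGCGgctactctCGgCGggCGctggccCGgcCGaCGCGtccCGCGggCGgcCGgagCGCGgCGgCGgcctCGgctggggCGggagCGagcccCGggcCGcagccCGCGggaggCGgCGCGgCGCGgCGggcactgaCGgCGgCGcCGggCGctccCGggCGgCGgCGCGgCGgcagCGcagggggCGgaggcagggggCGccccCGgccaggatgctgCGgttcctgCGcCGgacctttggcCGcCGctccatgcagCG
Zfyve9: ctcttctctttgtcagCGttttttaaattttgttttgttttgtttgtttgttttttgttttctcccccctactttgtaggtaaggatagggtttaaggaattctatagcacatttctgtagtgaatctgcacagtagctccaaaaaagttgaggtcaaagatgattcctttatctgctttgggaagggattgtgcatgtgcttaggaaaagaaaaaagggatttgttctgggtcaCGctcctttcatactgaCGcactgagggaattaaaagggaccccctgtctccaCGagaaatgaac
The median GC content was 59.8% for the 48 higher probes with a promoter sequence, 61.8% for the 28 lower ones and 60% for all 16877 such probes. In 5 bins of probes from the lowest to the highest promoter GC content the median differences were 0.01, 0.02, 0.01, 0.01 and -0.00. Per array, the slope of the deviation from the spermatid mean differed between the genotypes by -0.004 log2 units per 10 percent of GC over 11395 genes (exact two-sided permutation test over arrays, p = 0.8, where 3 arrays against 3 cannot give less than 0.1). The sign of the slope changed without heterozygous array 1 (0.0132) or wild type array 2 (0.00156). Without heterozygous array 2 the slope was -0.0247 with p = 0.1 in the exact permutation test, the smallest that its 10 arrangements allow. Over the 5 bins, from low to high GC content, the higher calls numbered 9, 9, 12, 9 and 9 and the lower calls 5, 5, 4, 4 and 10.

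All 3 called cyclin probes were lower in heterozygous spermatids: that of Ccnd1, the D-type cyclin that partners CDK4 and CDK6 in G1, and both called probes of Ccng1, cyclin G1, a target of p53. Ccnd1 read 6.92, 6.92 and 7.02 on heterozygous arrays against 7.42, 7.24 and 7.46 on wild type arrays (-0.43 ± 0.08 SE, adjusted p = 0.00935). Its heterozygous mean, 6.95, lay not far above the lowest mean kept (6.802). Of the other kept Ccnd1 probes 2 gave -0.38 and -0.20 (unadjusted p = 0.0499 and 0.0312), with overlapping arrays, and 1 gave 0.01. Ccng1 read 7.68, 7.58 and 7.90 on heterozygous arrays against 8.31, 7.95 and 8.14 on wild type arrays for the first probe (-0.41, adjusted p = 0.0429). Its uncalled probes gave 0.02 and -0.20, with overlapping arrays. On the 3 called cyclin probes every heterozygous array was below every wild type array. Of the 41 cyclin probes kept, 7 were lower at an unadjusted p under 0.05 (17.1%, against 2.23% of all probes) and 0 higher (against 2.95%), 14 had a positive difference, and the median was -0.08. E2f2, an E2F transcription factor of S-phase genes, fell by 0.39 (7.27, 7.39 and 7.25 on heterozygous arrays, 7.90, 7.47 and 7.72 on wild type arrays). Mcm4, a subunit of the replicative helicase, fell by 0.64 (8.73, 9.03 and 9.31 against 10.00, 9.34 and 9.64), with wild type array 2 nearest to the heterozygous arrays; its other kept probe gave 0.08.

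Cables2, which binds cyclin-dependent kinases, moved the other way. It read 8.04, 7.97 and 8.19 on heterozygous arrays and 7.59, 7.76 and 7.41 on wild type arrays (0.48 ± 0.09, adjusted p = 0.0131), and its other kept probe gave -0.30 ± 0.41. It was the one called probe among 63 of cyclin-dependent kinases and their inhibitors, of which 5 were higher without overlap (7.94%, against 6.21% of all probes) and 0 lower (against 3.27%), with a median of 0.12, or 0.04 without wild type array 3 and 0.05 without heterozygous array 2. Among genes of cell death, Bcl2l1, which encodes the survival factor BCL-XL, rose on both its called probes (0.42 and 0.55), and Dffa, the inhibitor of the DNase that cuts DNA in apoptosis, rose by 0.37. Those 3 were the calls among 53 probes of the BCL2 family and caspases, whose median was 0.01, where 0.268% of all probes were called higher. The first Bcl2l1 probe read 9.49, 9.60 and 9.73 on heterozygous arrays against 9.29, 9.31 and 8.97 on wild type arrays, with wild type array 3 the farthest out. Hsf2, a heat shock factor found in spermatogenic cells, fell: 7.75, 7.43 and 7.76 on heterozygous arrays against 8.22, 8.01 and 8.35 on wild type arrays (-0.55 ± 0.11, adjusted p = 0.0152). It was the only call among 108 probes of heat shock factors and chaperones (median -0.00), where 0.172% of all probes were called lower.

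Several of the called genes handle RNA, and apart from Ranbp2 those named here were higher. They include Med15, a subunit of the Mediator bridge to RNA polymerase II (0.50); Sf3a2, of the U2 particle of the spliceosome (0.51); the RNA-binding proteins Hnrnpul1 (0.54) and Ptbp1, a repressor of exon inclusion (0.43); Cpsf4, Mif4gd, Trmt1 and Xrn1. Cpsf4, the zinc finger subunit of the cleavage and polyadenylation factor, read 8.04, 8.19 and 8.37 on heterozygous arrays against 7.89, 7.89 and 7.66 on wild type arrays (0.39 ± 0.09, adjusted p = 0.0282). Trmt1, which methylates guanosine in tRNA, read 9.29, 9.22 and 9.68 against 8.90, 8.81 and 8.95 (0.51 ± 0.11, adjusted p = 0.0202), while its other kept probe gave -0.18 ± 0.28. Heterozygous array 3 was the highest for both. Xrn1, the exonuclease that degrades decapped mRNA from its 5′ end, read 8.31, 8.27 and 8.38 against 8.05, 7.90 and 7.93 (0.36 ± 0.07, adjusted p = 0.017) and was the most even of these over the arrays. Bud23, a methyltransferase of ribosomal RNA, rose by 0.45, and Tnpo2, an import receptor, by 0.36. Ranbp2, a filament protein of the nuclear pore, fell by 0.18, and the 82 nuclear transport probes had a median of 0.01.

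No list of genes that handle RNA held more than 2 calls. Of 135 probes of the spliceosome and hnRNP proteins 2 were called higher, where 0.268% of all probes were. At an unadjusted p under 0.05, 11 were higher (8.15%, against 2.95% of all probes) and 1 lower (0.741%, against 2.23%), and the median was 0.04. Of 54 Mediator probes 1 was called, of 39 for cleavage and polyadenylation 1, of 76 for mRNA decay 1, of 89 for translation initiation 1 (Mif4gd, which binds the initiation scaffold, 0.50) and of 79 for tRNA synthetases and methyltransferases 1, with medians of 0.02, 0.03, 0.03, 0.03 and -0.00. Neither ribosome had a called probe: the median of 103 probes of cytosolic ribosomal proteins was -0.02 and that of 109 probes of mitochondrial ones 0.05. The smallest p among the cytosolic ones belonged to Rpl39, on the X chromosome, at 8.25, 8.43 and 8.61 on heterozygous arrays and 9.39, 8.45 and 10.17 on wild type arrays (unadjusted p = 0.036). Its groups overlapped, since wild type array 2 lay far below the other wild type arrays. RNA polymerase II and TFIID had 0 calls in 55 probes, with Polr2e at 0.25 (9.71, 9.86 and 10.16 against 9.67, 9.62 and 9.68).

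Chromatin genes were called in both directions. Higher were Tada3, an adaptor of histone acetyltransferase complexes (0.40), Phf1, a Polycomb-like partner of the H3K27 methyltransferase (0.48), and Parp1, which adds ADP-ribose chains at DNA breaks (0.53). Lower were Kdm5a, which removes methyl groups from lysine 4 of histone H3, Brd2, a bromodomain reader of acetylated histones (-0.38), and the histone gene H2ac15 (-0.79), one of a family of near-identical H2A genes that a single probe may not tell apart. Kdm5a read 7.12, 7.17 and 6.95 on heterozygous arrays against 7.35, 7.39 and 7.43 on wild type arrays (-0.31 ± 0.07, adjusted p = 0.0269). H2ac15 read 10.42, 10.94 and 10.05 against 11.36, 11.12 and 11.29, where heterozygous array 2 came close to the wild type arrays. The lists behind them lay near the median of all probes: -0.02 for 86 probes of histone lysine methyltransferases and demethylases, 0.03 for 91 of histone acetylation and bromodomains, -0.02 for 56 of Polycomb, -0.02 for 90 of histones and 0.02 for 26 of the PARP family. Among 26 probes of DNA methylation and methyl-CpG binding 0 passed even an unadjusted p of 0.05. There Dnmt3b, the enzyme that DNMT3L stimulates, read 8.25, 8.90 and 8.55 on heterozygous arrays and 8.83, 8.91 and 9.07 on wild type arrays (-0.37, unadjusted p = 0.051), overlapping through heterozygous array 2.

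Epb41l2 and Epb41l4b belong to the protein 4.1 family, which ties membrane proteins to spectrin and actin. Epb41l2 read 7.21, 7.39 and 7.05 on heterozygous arrays against 7.79, 7.75 and 8.31 on wild type arrays (-0.73 ± 0.15, adjusted p = 0.0167), while its other kept probes, with overlapping arrays, gave -0.11 ± 0.30 and -0.67 ± 0.31 (unadjusted p = 0.729 and 0.0595). Epb41l4b, whose CG-rich promoter is printed above, read 7.06, 7.04 and 7.12 against 7.38, 7.34 and 7.44 (-0.31 ± 0.05, adjusted p = 0.00547), the smallest adjusted p of any named gene that fell, and its groups were separated by more than their own spread. Rhoc, a small GTPase that drives actomyosin contraction, read 6.85, 6.75 and 6.82 against 6.97, 7.01 and 7.02 (-0.19 ± 0.05, adjusted p = 0.0312). Its mean in heterozygous spermatids, 6.81, lay near the lowest mean kept (6.802), and its heterozygous and wild type spermatocyte means, 6.78 and 6.75, lay under it. Arhgef2, a guanine nucleotide exchange factor, fell by 0.76, though its wild type arrays ran from 8.53 to 9.43 and its other kept probes gave 0.04 and -0.13. Without both arrays numbered 2 the difference of Epb41l2 was -0.92 and that of Arhgef2 -0.95.

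Rhpn1, Scrib and Numb rose. Rhpn1, rhophilin-1, read 9.16, 9.23 and 9.36 on heterozygous arrays against 8.82, 8.99 and 8.76 on wild type arrays (0.39 ± 0.09, adjusted p = 0.0198). Scrib, a scaffold of basolateral polarity, read 8.74, 9.07 and 8.81 against 8.38, 8.42 and 8.56 (0.42 ± 0.09, adjusted p = 0.0207), and Numb, an asymmetrically placed antagonist of Notch, rose by 0.42. Counted over the lists, 2 of 57 probes of protein 4.1, spectrin and ankyrin were called lower (median -0.03) and 2 of 54 polarity probes higher (0.02). Of all probes 0.172% were called lower and 0.268% higher.

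Flagellar genes, which round spermatids switch on as the tail grows, held 4 calls in 138 probes, where 0.44% of all probes were called. Ccdc40, needed to place the inner dynein arms of the axoneme, read 9.62, 10.04 and 9.86 on heterozygous arrays against 9.35, 9.43 and 9.24 on wild type arrays (0.50 ± 0.10, adjusted p = 0.0142). Ccdc114, of the docking complex of the outer dynein arms, rose by 0.36, and Iqcd, of the dynein regulatory complex, by 0.46. Iqca, a further protein of that complex, fell: it read 10.98, 10.48 and 10.20 against 11.15, 11.29 and 11.34 (-0.70 ± 0.17, adjusted p = 0.0302). Its heterozygous arrays spread more widely than its wild type arrays. The median of the axoneme list was 0.02. Kinesins and cytoplasmic dynein (100 probes), intraflagellar transport (49) and tubulins (30) had 0 calls, with medians of 0.03, 0.03 and 0.01; Tuba3a, a testis tubulin of a family of close copies, read 13.21, 13.24 and 13.48 against 12.84, 13.17 and 13.03 (unadjusted p = 0.022).

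**Figure D2:**
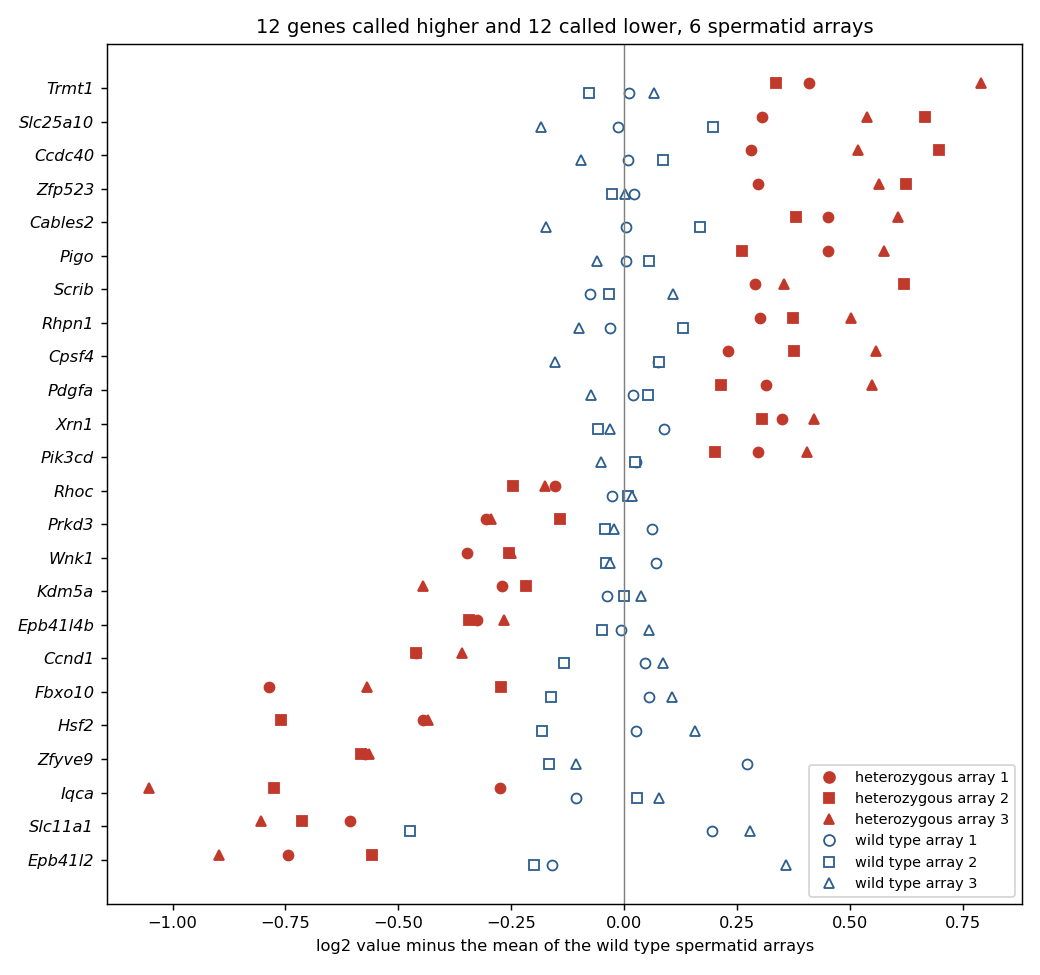
Value on each of the 6 spermatid arrays minus the mean of the wild type spermatid arrays (log2 units, horizontal axis) for 12 genes called higher and 12 called lower, heterozygous arrays as filled red and wild type arrays as open blue symbols, with a symbol shape for each array number. For Epb41l4b the heterozygous and wild type arrays form tight separate groups, whereas the wild type arrays of Slc11a1 run from 8.01 to 8.76.

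Of receptor tyrosine kinases and their ligands 4 of 83 probes rose and 0 fell, where 0.268% and 0.172% of all probes did: the ligands Pdgfa and Egf (0.37), the VEGF receptor Kdr (0.41), and Fgfrl1, an FGF receptor without a kinase domain (0.34). On 13 of the 83 probes (15.7%, against 6.21% of all probes) every heterozygous array was above every wild type array and on 0 below (against 3.27%), while the median was only 0.02. The list was chosen with earlier results of these data known, so these shares are no test. Pdgfa read 9.26, 9.16 and 9.50 on heterozygous arrays against 8.97, 9.0 and 8.88 on wild type arrays (0.36 ± 0.08, adjusted p = 0.0272), and its other kept probe gave -0.53 ± 0.50. Downstream, Pik3cd, the delta catalytic subunit of PI3-kinase, read 7.34, 7.25 and 7.45 against 7.08, 7.07 and 7.0 (0.30 ± 0.07, adjusted p = 0.0219), and the adaptor Sh2b3 rose by 0.45. Against these, Prkd3, protein kinase D3, read 6.84, 7.0 and 6.85 against 7.21, 7.10 and 7.12 (-0.25 ± 0.06, adjusted p = 0.0274), and its other kept probe 0.02. Wnk1, a kinase that regulates ion transport, read 7.26, 7.35 and 7.36 against 7.68, 7.57 and 7.58 (-0.28 ± 0.07, adjusted p = 0.0346), while its other kept probes, with overlapping arrays, gave -0.13, 0.03 and 0.14. The median of the 75 PI3-kinase and adaptor probes was -0.01.

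Zfyve9, also called SARA, holds SMAD proteins at endosomes for the TGF-beta receptor. It read 8.14, 8.13 and 8.15 on heterozygous arrays against 8.99, 8.55 and 8.61 on wild type arrays (-0.57 ± 0.14, adjusted p = 0.029), and a second kept probe gave -0.24 (unadjusted p = 0.0368). It was the only call among 56 probes of SMAD and TGF-beta signalling (median -0.01). In the ubiquitin system Fbxo10, a substrate receptor, read 7.95, 8.46 and 8.17 against 8.79, 8.57 and 8.84 (-0.54 ± 0.13, adjusted p = 0.0267). Cul1, the scaffold that such receptors dock on, fell by 0.27. Those were the calls among 164 probes of cullins and F-box proteins (median 0.02), where 0.172% of all probes were called lower. Neither the proteasome (64 probes, median -0.02) nor conjugating enzymes and USPs (121 probes, 0.01) had a call.

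Pigo, one of the enzymes that assemble the GPI anchor of membrane proteins, read 8.14, 7.95 and 8.26 on heterozygous arrays against 7.69, 7.74 and 7.63 on wild type arrays (0.43 ± 0.08, adjusted p = 0.00934), and a second Pigo probe gave 0.26 (unadjusted p = 0.00889) and another 0.08. Of the 41 GPI anchor probes 5 were higher without overlap (12.2%, against 6.21% of all probes) and 2 lower (4.88%, against 3.27%), with a median of 0.05. Slc25a10, the mitochondrial carrier of dicarboxylates, read 9.34, 9.70 and 9.57 against 9.02, 9.23 and 8.85 (0.50 ± 0.12, adjusted p = 0.0275), and its other kept probe gave -0.03. Zfp523, a C2H2 zinc finger protein, read 8.37, 8.70 and 8.64 against 8.10, 8.05 and 8.08 (0.50 ± 0.10, adjusted p = 0.0136), the only call among 320 probes of Zfp genes (median 0.01). Dpep3, a dipeptidase of the testis, rose by 0.22, the one call among 37 acrosome and fusion probes (median -0.04). For these lists, the share of all probes called higher was 0.268%. Other calls outside any list included Them6 (0.62, the largest rise of a named gene), Ogfod2 (0.47), Spsb3 (0.47), Vps37c, of the ESCRT-I sorting complex (0.49), Scly, which splits selenocysteine (0.42), and Hdgf (0.38) among the higher. Chsy1, which builds chondroitin chains (-0.47), Ulk3 (-0.45), Nans, a sialic acid synthase (-0.40), Ttc19, an assembly factor of respiratory complex III (-0.35), and Primpol, a primase that restarts stalled forks (-0.28), were among the lower.

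Of 59 gene lists 34 held a called probe, and 52 of the 123 calls fell in a list. The share of all kept probes that fell in a list was not taken. As the lists were chosen with earlier results of these data known, these counts are no result about them. The remaining 25 lists show groups of spermatid biology in which no probe passed. Protamines, transition proteins and the factors that switch them on had a median of 0.08 over 43 probes, with 32 positive and 1 at an unadjusted p under 0.05, of Rfx4 (0.14). The piRNA pathway had a median of 0.12, with 20 of 22 probes positive and none at an unadjusted p under 0.05. Of all 27986 kept probes 15186 were positive. Against the wild type mean, the piRNA list had medians of 0.04, 0.13 and 0.14 on heterozygous arrays 1, 2 and 3. On wild type arrays 1, 2 and 3 they were -0.02, 0.26 and -0.28, so wild type array 2 lay above every heterozygous array. Tdrd6, a tudor protein of the chromatoid body, read 12.64, 12.87 and 12.92 on heterozygous arrays and 12.76, 12.17 and 12.67 on wild type arrays, which overlap. Meiotic prophase genes (27 probes, median 0.00) and imprinted genes (69 probes, -0.02) gave 0 calls; Trappc9 at 0.25 and Gnas at -0.16 were the imprinted genes of smallest p and did not overlap between the groups.

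Energy genes were likewise uncalled. Glycolysis (35 probes) had a median of 0.01 and nuclear-encoded respiratory chain genes (96 probes) one of -0.04. Transcripts of the mitochondrial genome had a median of -0.20 over 7 probes, which went to -0.56 without both arrays numbered 2. ATP6, a subunit of ATP synthase, read 9.68, 10.47 and 7.57 on heterozygous arrays and 10.28, 10.27 and 10.51 on wild type arrays, so the difference of -1.11 lay in heterozygous array 3 (unadjusted p = 0.093). Genes induced by tissue dissociation (26 probes) had 0 calls and a median of -0.05, or -0.37 without both arrays numbered 2. Klf6 among them read 8.03, 8.65 and 8.04 against 8.91, 8.18 and 9.27, with array 2 out of line in each genotype.

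Olfactory and vomeronasal receptor genes are a large family that most tissues express little. Of their 365 kept probes 0 were called, but 63 were higher on every heterozygous array (17.3%) and 7 lower (1.92%), with a median of 0.05. Their level moved with this count: 208 of the 365 lay in the lowest of the 5 level bins and 117 in the second. In those bins 7.36% and 9.56% of all probes were higher without overlap and 5.93% and 4.57% lower. The part of level in the receptors' count was not tested. Olfr218, at 0.18, had the smallest p among them (6.97, 6.95 and 7.02 against 6.83, 6.76 and 6.80), and without heterozygous array 3 the median of the list was 0.03.

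**Figure D3:**
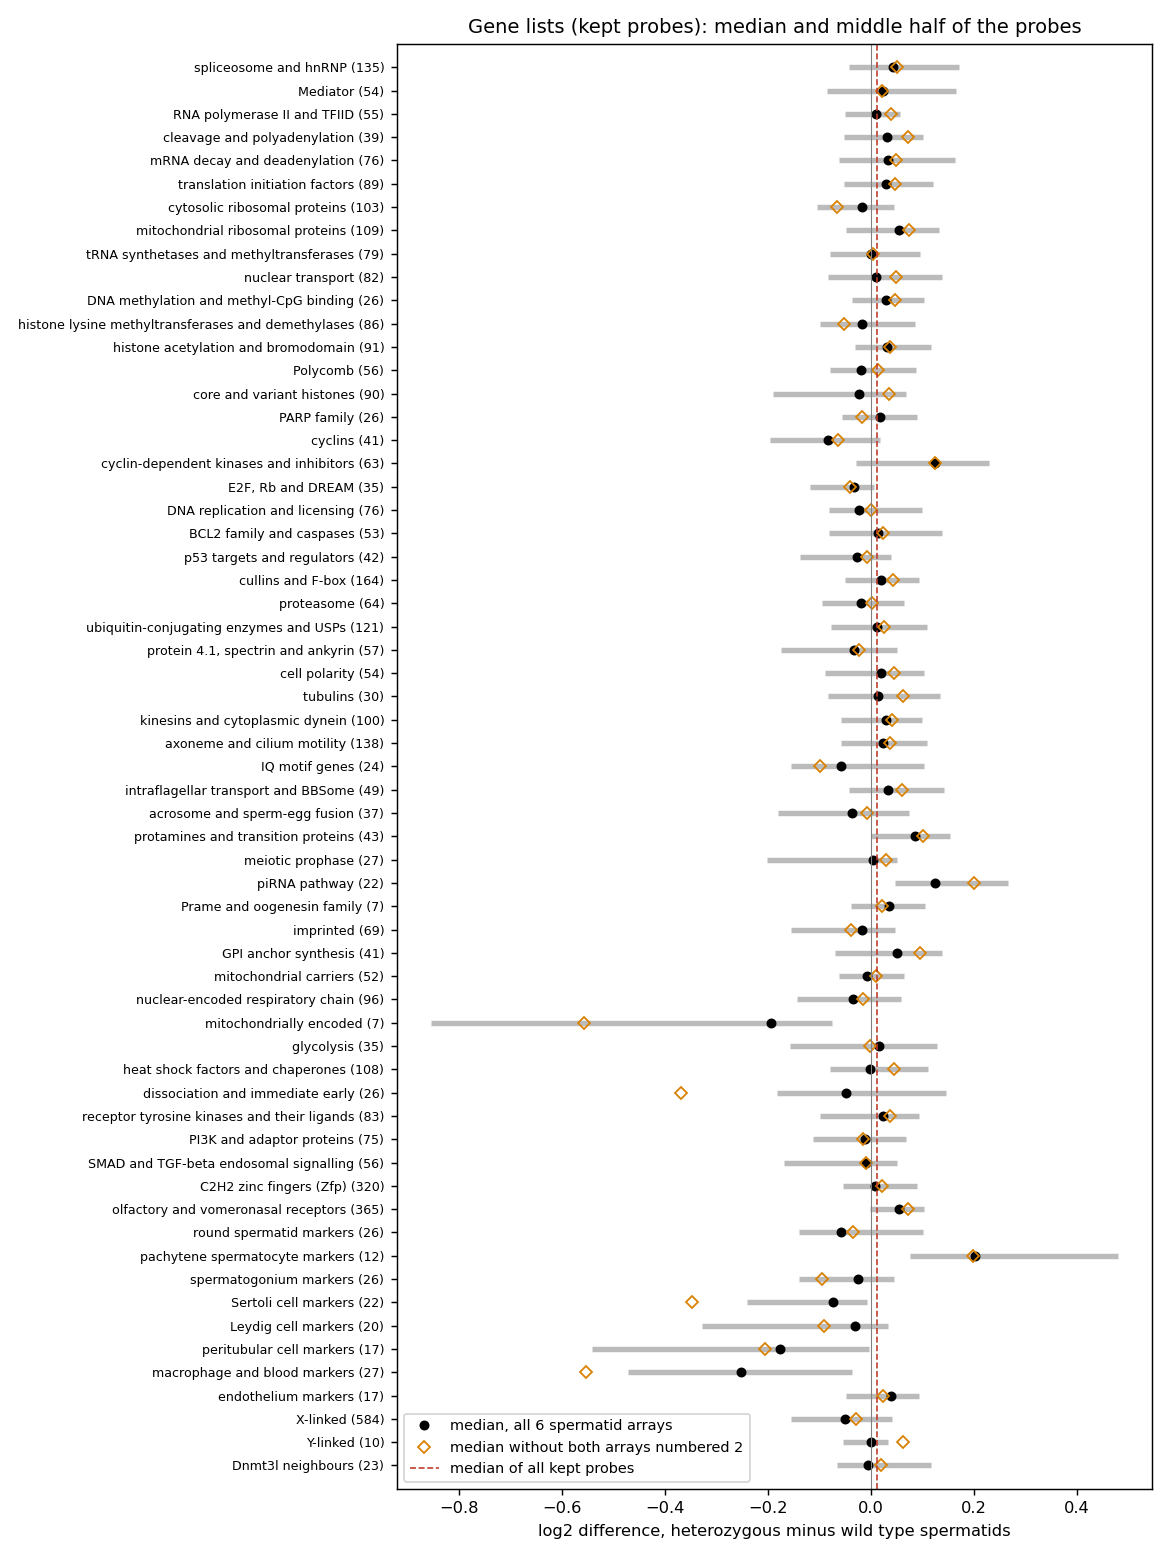
Median (black point) and middle range between the quartiles (grey bar) of the log2 difference, heterozygous minus wild type spermatids, over the kept probes of each gene list, with the number of probes in brackets, the median without both arrays numbered 2 (open diamond) and the median of all kept probes (dashed line). Most medians lie near 0.01, while macrophage and blood markers (-0.25) and mitochondrially encoded transcripts (-0.20) lie lower and pachytene spermatocyte markers (0.20) higher.

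Markers of the cell types that a fraction can hold were read on each array. The round spermatid list bore the label out. Linear levels of its 26 probes, after reversing the log2, were summed on each array. The sums were 104323 to 141488 on heterozygous and 111207 to 146428 on wild type spermatid arrays. On the spermatocyte arrays they were 40992 to 43063 and 23196 to 36247. The lowest sum of each genotype was that of array 2. Pachytene spermatocyte markers (12 of 19 probes kept) were present too, at 46809 to 51368 in heterozygous and 41399 to 47278 in wild type spermatids. The spermatocyte arrays gave 54017 to 55128 (heterozygous) and 51304 to 56581 (wild type). At 51368 heterozygous spermatid array 2 lay above the lowest spermatocyte array, so on this list the cell types overlapped. Of the 12 differences 11 were positive, with a median of 0.20. At an unadjusted p under 0.05, 2 were higher (16.7%, against 2.95% of all probes), Aurkc (0.29) and Adam3 (0.50), and 0 were called. Since the tissue is a mixture read in bulk, fewer cells of a type and less RNA per cell cannot be told apart.

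Somatic markers varied widely within each genotype. Of Sertoli markers 22 of 32 probes were kept, with sums of 5914 to 19874 in heterozygous and 10384 to 18901 in wild type spermatids. Probes of Fshr and Amh were among those under the level filter. Leydig sums were 5278 to 10216 and 4607 to 19866, led by Cyp17a1, an enzyme of androgen synthesis, which stood at 9.17, 11.63 and 8.80 on heterozygous arrays and 10.21, 8.27 and 12.74 on wild type arrays. Peritubular sums were 8541 to 12738 and 10344 to 16175, and endothelial sums 2599 to 3281 and 2644 to 3029, where Kdr was called (above). Spermatogonial sums were 4440 to 5228 and 4655 to 6214, with 0 calls. In each of these lists the ranges of the genotypes overlapped.

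Macrophage and blood markers had the lowest median of the lists, -0.25 over 27 kept probes. Of these 23 were negative, where 12800 of all 27986 kept probes were. At an unadjusted p under 0.05, 4 were lower (14.8%, against 2.23% of all probes), and 1 was called lower, where 0.172% of all probes were. That one was Slc11a1, the metal transporter of the macrophage phagosome, at 7.88, 7.77 and 7.68 on heterozygous arrays against 8.68, 8.01 and 8.76 on wild type arrays (-0.71 ± 0.17, adjusted p = 0.0312), while its other kept probes gave -0.01 and -0.07 with overlapping arrays. The sums were 64453, 66069 and 42491 in heterozygous and 76922, 39496 and 83953 in wild type spermatids, so wild type array 2 was below all others. The same order of the wild type arrays, with array 2 lowest and array 3 highest, was seen for Epb41l2, Arhgef2, Ccnd1 and Fbxo10 among the genes that fell. It was common among the 48 lower calls: wild type array 2 was the lowest for 37 (77.1%) and array 3 the highest for 31 (64.6%). Over all kept probes with a negative difference these shares were 41.9% and 41.6%. The heterozygous sums were highest on array 2 and lowest on array 3, an order that Epb41l2 had but Ccnd1, highest on heterozygous array 3 (7.02), had not. Without both arrays numbered 2 the median of the list was -0.55, and with single arrays left out it ran from -0.51 (without wild type array 2) to -0.04 (without wild type array 3). The part of these cells in the called genes was not tested.

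**Figure D4:**
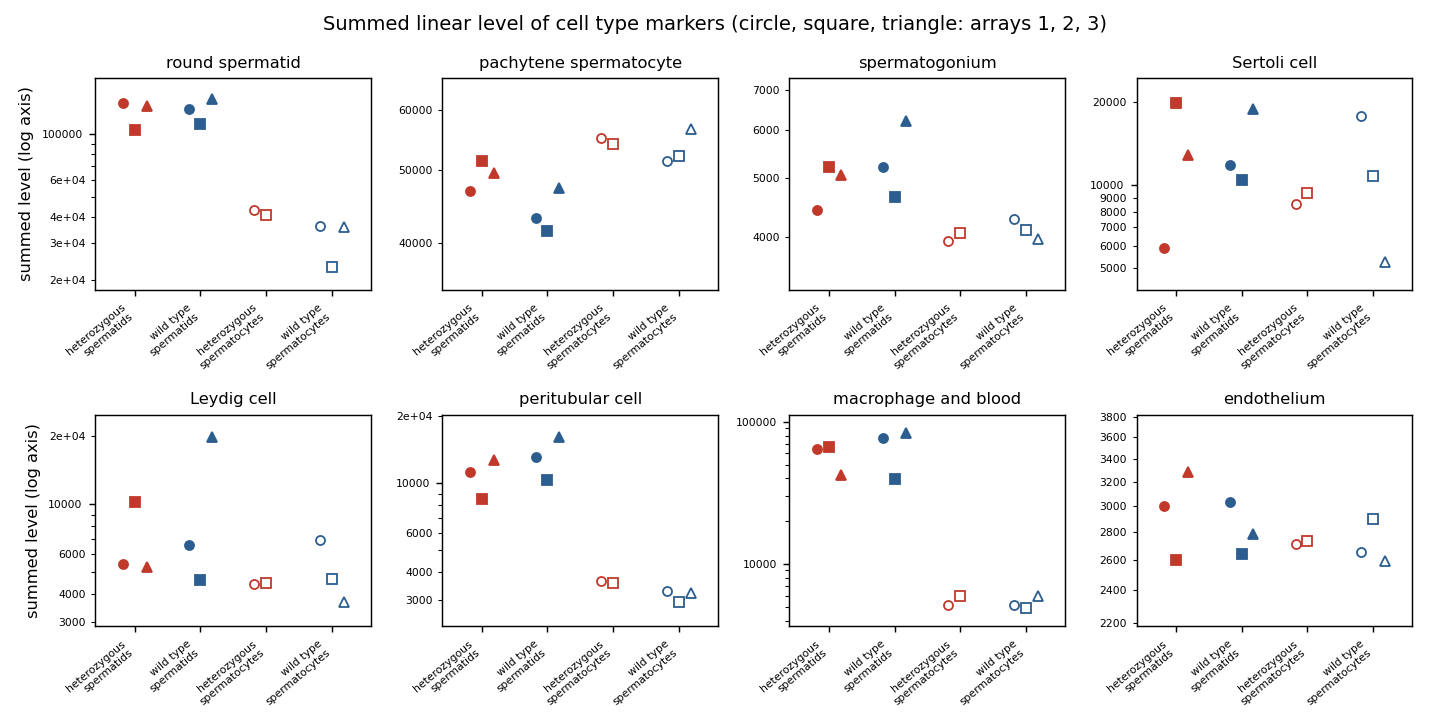
Sum of the linear levels of the kept marker probes of 8 cell types (vertical axis, log scale) on each of the 11 arrays, heterozygous red and wild type blue, spermatids filled and spermatocytes open, with a circle, square and triangle for arrays 1, 2 and 3. Round spermatid sums are 104323 or more on every spermatid array and 43063 or less on every spermatocyte array, and the genotypes overlap within spermatids for all 8 types.

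X-linked genes were fitted alone as well, since the X chromosome is silenced in meiosis and stays largely repressed in spermatids. At an adjusted p under 0.2 over the 584 X-linked probes, 43 were lower (7.36%) and 8 higher (1.37%) in heterozygous spermatids, in 48 genes. The median X-linked difference was -0.05, against 0.01 over 20312 autosomal probes, and 63.7% of X-linked against 45.4% of autosomal probes were negative. Only 24 of the 43 were separate between the groups, and the largest unadjusted limma p among the X-linked calls was 0.0518. With adjustment inside this contrast 0 of the X-linked probes passed (49 at an unadjusted p under 0.05), and without heterozygous array 2 the calls were 49 lower and 41 higher, with a median of -0.00. Without both arrays numbered 2 there were 131 lower and 25 higher.

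The 10 X-linked probes of smallest p all fell at this threshold. Each of them also had a lower wild type mean in spermatocytes than in spermatids, from Hprt (7.59 and 9.48) to an Ogt probe (6.81 and 6.94). The part of spermatocytes in the X-linked differences was not tested. Tro, trophinin, a membrane protein of the MAGE family, read 6.81, 7.04 and 6.74 on heterozygous arrays against 7.25, 7.22 and 7.17 on wild type arrays (-0.35 ± 0.08). It was the one X-linked call of the whole-array test. Its heterozygous mean, 6.86, lay near the lowest mean kept (6.802). Kdm6a, which removes methyl groups from lysine 27 of histone H3, appeared with 2 probes, one of which read 7.73, 7.96 and 7.82 against 8.48, 8.01 and 8.23 (-0.41 ± 0.12). Ogt, which places N-acetylglucosamine on nuclear and cytosolic proteins, also appeared with 2 probes (-0.22 and -0.42). The first of these read 6.77, 6.73 and 6.66 on heterozygous arrays, all under 6.802. The rest were Chic1 (-0.30), Nudt11, a phosphohydrolase (-0.32), Cask, a membrane scaffold (-0.32), Gm773 (-0.41) and Hprt, of purine salvage (-0.52). Of these Cask, Gm773 and Hprt overlapped between the genotypes: Hprt read 8.76, 8.86 and 9.24 against 9.77, 9.09 and 9.58. The 10 Y-linked probes had a median of -0.00 and 0 calls.

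In spermatocytes the called probes were read on other arrays, but in the same fit and with a residual variance taken over all 11 arrays, so the calls are not independent of them: 37 and 36 probes were called in spermatids without heterozygous spermatocyte array 1 or 2. Of the 75 probes higher in heterozygous spermatids, 54 had a positive difference in spermatocytes (72%, where 59.5% of all kept probes positive in spermatids did). At an unadjusted p under 0.05, 8 of the 75 were positive there, where 2% of all kept probes positive in spermatids were. Adjustment was passed by 4 of the 75, against 0.138% of all those: Xrn1 (0.34), Sult2a2, a sulfotransferase of a family of close copies (0.41), and 2 unnamed probes. Of the 48 lower, 27 were negative in spermatocytes (56.2%, where 59.2% of all negative ones were). Of these, 3 had an unadjusted p under 0.05, where 1.77% of all negative ones did, and 0 passed adjustment, where 0.109% did. The median spermatocyte differences of the higher and lower probes were 0.06 and -0.02. No called probe had the opposite sign at an unadjusted p under 0.05, a count for which the share over all probes was not taken. Of the X-linked calls, 37 of 43 lower and 8 of 8 higher kept their sign in spermatocytes, as did 67.7% and 69.3% of all X-linked probes negative and positive in spermatids.

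The difference between the cell types was itself tested. No probe passed (limma, smallest adjusted p = 1), with 566 (2.02%) at an unadjusted p under 0.05, so no gene is shown here to respond in spermatids and not in spermatocytes. The smallest p belonged to Ube3b, a ubiquitin ligase, which differed by 0.26 in spermatids and -0.44 in spermatocytes. Its heterozygous spermatid arrays read 9.93, 9.76 and 9.98, against 9.63, 9.70 and 9.56 in wild type spermatids. The remaining 4 of the 5 probes with the smallest p carry no gene symbol.

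**Figure D5:**
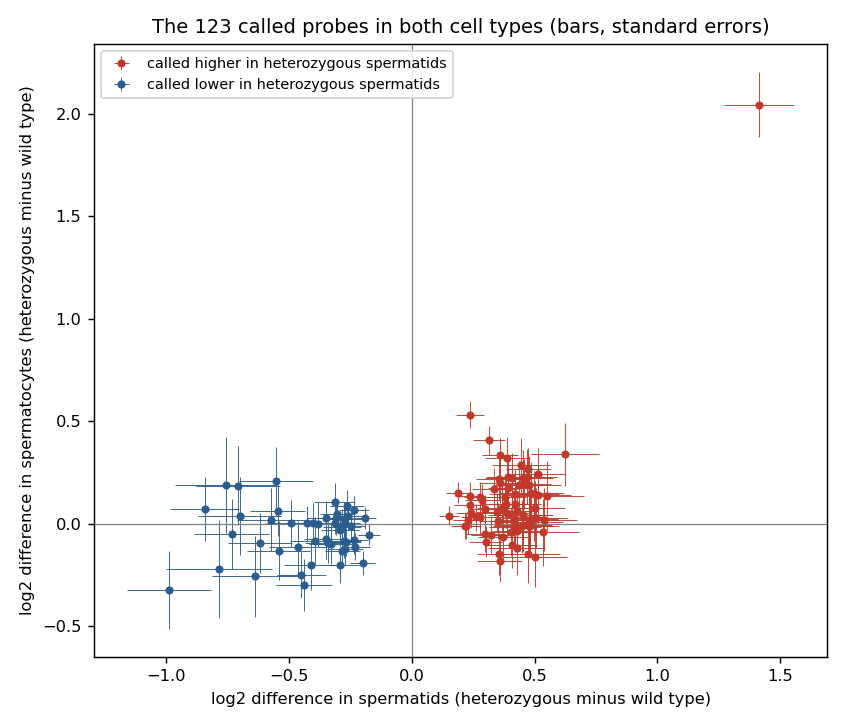
Log2 difference, heterozygous minus wild type, of the 123 called probes in spermatids (horizontal axis) and in spermatocytes (vertical axis), with standard errors as bars, red for probes called higher and blue for probes called lower in spermatids. Most points lie near 0 on the vertical axis, with medians of 0.06 and -0.02, and the single point at the upper right is the unnamed probe 106020017 (1.41 and 2.05).

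That unnamed probe, 106020017, gave the largest difference of all. It read 8.32, 8.17 and 7.98 on heterozygous spermatid arrays against 6.76, 6.71 and 6.76 on wild type arrays, a fold of 2.66 (adjusted p = 0.00105), and in spermatocytes 9.12 and 8.50 against 6.76, 6.79 and 6.74. Among the 15 other probes of called genes that had the call's direction at an unadjusted p under 0.05 were probes of Pigo, Zfyve9, Hdgf, Ptbp1, Septin3, Tada3, Med15 and Rhpn1, and pairs of probes of Ccnd1, Hnrnpul1 and Bud23.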

How the data were processed

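RNA of each preparation was hybridised to an Illumina mouse WG-6 BeadChip: 3 arrays per genotype for spermatids, and 2 heterozygous and 3 wild type arrays for spermatocytes. The authors took intensities from BeadStudio into lumi, removed the mean of the negative control beads, stabilised the variance and normalised by quantiles, which gave the deposited log2 values; versions are not given in the sources used here. A further deposited table was not used, because its 22 columns could not be tied to samples.

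Means of 4 groups were fitted over 11 arrays with limma 3.58.1 (R 4.3.3, statmod 1.5.0), with 7 residual and 1.89 prior degrees of freedom, after leaving out the lowest 40% of probes by mean. P-values were adjusted by Benjamini-Hochberg over kept probes and 4 contrasts at 0.05, over X-linked probes alone at 0.2, and for the interaction by itself. Differences are heterozygous minus wild type, opposite in sign to the study's. The p-values measure the spread between pooled preparations, and the number of arrays limits the precision. The fit was tested on simulated data. Alternatives were other filters, adjustment within the contrast, spermatid arrays alone, a trended robust prior, array weights, a replicate block, centring on the autosomal median and each array left out.

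Of 46643 probes 32794 had 1 gene symbol, 55 several and 13794 none in the platform annotation; 32722 were updated by gene ID and 11 by accession through RefSeq, and 61 kept their symbol. Promoters are RefSeq's (GRCm38.p6). Figures used Python 3.11.15 with numpy 2.4.6, pandas 2.3.3 and matplotlib 3.10.9. Named are the genes of called probes by role, with all arrays for 12 higher and 12 lower (first list members or genes with several called probes, then by p), up to 3 members of a list with no call, Dnmt3l and Aire, the 10 X-linked and 5 interaction probes of smallest p, other probes of called genes, and markers of widest range. Array values of other called genes were chosen after they were seen. Members and lists were chosen with earlier results of these data known, so lists carry no test. One gene list is not reported here.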

Additional observations from a re-analysis of the deposited data

How the results depend on the processing

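Of the 123 called probes none changed direction in any alternative that kept them (112 were kept with the 60% filter). The groups of all 123 did not overlap, so leaving out arrays could not reverse a direction. The unchanged directions therefore say little on stability. The count was 104 with no filter (55 higher, 49 lower), 96 with a 60% filter, 129 with a trended robust prior, though with 26 higher and 103 lower and 53 probes shared, and 127 with arrays centred on the autosomal median. It was 0 with adjustment within the contrast, 0 with spermatid arrays alone and 1281 with array weights, whose estimate stopped before it converged. Leaving out single arrays gave 24 to 1340, and leaving out both arrays numbered 2, chosen after seeing the data, gave 1512. The X-linked count of 51 was 50 with no filter, 0 within the contrast, 14 to 123 without single arrays and 156 without both arrays numbered 2. The interaction stayed at 0 calls in every setting run (smallest adjusted p 0.105 to 1). The promoter trend of -0.004 ran from -0.0247 to 0.0132 without single arrays, positive without heterozygous array 1 (0.0132) or wild type array 2 (0.00156). With the replicate number as a block 42 probes were called, 11 of them among the 123, and 18 X-linked probes. Same-numbered arrays deviated together at r = 0.285, 0.329 and 0.0613. Heterozygous arrays 1 and 2 each went best with the wild type array of their number, but heterozygous array 3 with wild type array 1 (0.359). Whether same-numbered preparations share more than a number cannot be told from these values. Of the 62 list medians, 53 to 60 stayed within the spread of their arrays when 1 spermatid array was left out, and 9 to 22 changed sign. The alternatives from the bead signal table were not run, since its columns could not be tied to samples. The precision is limited by 3 pools a genotype: the median SD of a probe was 0.134 in heterozygous and 0.0993 in wild type spermatids.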
